A study of Homo sapiens with 6 samples.

Results

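JAK2 and its neighbours RCL1, CD274 and PDCD1LG2 lie side by side on the short arm of human chromosome 9, in band 9p24.1. They were studied here as every ATAC-seq peak that overlapped chr9:4780000-5600000 (hg19). The stretch held 299 of 112610 peaks in shHMGA1 cells and 340 of 127153 peaks in control cells, 639 of 239763 peaks in all. The position of the peaks alone chose them. The gene bodies were taken as chr9:4792834-4861077 for RCL1, chr9:4985245-5128183 for JAK2, chr9:5450503-5470566 for CD274 and chr9:5510545-5571254 for PDCD1LG2.

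ATAC-seq marks open chromatin by the places where the Tn5 transposase inserts adapters into DNA. The shHMGA1 cells, DAMI leukaemia cells by their labels, had received a lentivirus with a short hairpin RNA against HMGA1. The control cells carried the same line label and had received a control lentivirus. Each group had 3 samples, but the deposited values were 1 peak list per group, so no difference below rests on replicates and none is tested. Neither the hairpin sequence nor the remaining HMGA1 level is given in the sources used here, and the identity of the line and the number of copies of chromosome 9 were not tested. The series text also names a second line, SET-2, and whether its libraries entered the lists is not given in the sources used here. Read depth is unknown.

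JAK2 encodes the tyrosine kinase that carries signals from the receptors for erythropoietin, thrombopoietin and interferon-γ to the STAT transcription factors, and it is mutated in most myeloproliferative neoplasms. CD274 encodes PD-L1 and PDCD1LG2 encodes PD-L2, the ligands of the T-cell inhibitory receptor PD-1, and interferon-γ is a well-known inducer of CD274. RCL1 encodes a protein of ribosomal RNA processing. JAK2, CD274 and PDCD1LG2 are known to be gained together in lymphomas with extra copies of 9p24.1. HMGA1, the protein targeted by the hairpin, is an architectural chromatin factor that binds the minor groove of AT-rich DNA.

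Because the starts of RCL1 and JAK2 carried the highest summits of the stretch, the DNA just around gene starts is shown first. RefSeq (GRCh38.p14) gave promoter windows of 300 bases, 250 before and 50 after a start, for 3 of the 4 genes, with 4 starts for JAK2, of which the first 2 are printed. PDCD1LG2 had no window in the table. The windows were searched on both strands for the letters of 5 factor families and for runs of 6 or more bases made of A and T only, and matches are in capitals. The letters were AGATAA for GATA factors, CCGGAAG for ETS factors and TTCNNNGAA for STAT. For AP-1 they were TGA and TCA with any 1 base between them. For interferon regulatory factors (IRF) they were GAAA repeated, with any 2 bases between.
RCL1: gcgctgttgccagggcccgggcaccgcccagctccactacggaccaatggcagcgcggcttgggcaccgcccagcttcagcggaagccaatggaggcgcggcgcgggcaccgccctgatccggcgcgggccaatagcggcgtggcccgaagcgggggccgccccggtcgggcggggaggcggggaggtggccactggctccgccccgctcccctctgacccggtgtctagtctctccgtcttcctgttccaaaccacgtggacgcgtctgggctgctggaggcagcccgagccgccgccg
JAK2, first start: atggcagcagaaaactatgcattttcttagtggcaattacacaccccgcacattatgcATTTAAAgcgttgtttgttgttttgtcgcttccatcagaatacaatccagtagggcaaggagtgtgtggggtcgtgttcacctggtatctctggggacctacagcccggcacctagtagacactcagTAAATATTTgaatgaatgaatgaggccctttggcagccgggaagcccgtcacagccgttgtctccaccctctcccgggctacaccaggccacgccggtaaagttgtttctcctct
JAK2, second start: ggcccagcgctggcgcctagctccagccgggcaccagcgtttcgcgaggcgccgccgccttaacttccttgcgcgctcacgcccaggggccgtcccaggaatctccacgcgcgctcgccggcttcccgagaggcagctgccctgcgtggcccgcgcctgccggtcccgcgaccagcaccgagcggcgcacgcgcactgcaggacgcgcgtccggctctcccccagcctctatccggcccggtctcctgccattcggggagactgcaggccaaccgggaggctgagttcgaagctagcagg
CD274: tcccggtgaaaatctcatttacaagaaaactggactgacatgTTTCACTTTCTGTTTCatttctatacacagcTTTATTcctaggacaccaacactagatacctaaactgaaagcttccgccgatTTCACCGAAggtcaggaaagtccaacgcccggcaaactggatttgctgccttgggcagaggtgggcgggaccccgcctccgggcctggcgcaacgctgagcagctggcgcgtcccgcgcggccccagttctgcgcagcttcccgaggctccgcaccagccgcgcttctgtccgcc

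The CD274 window held a pair of IRF matches at bases 43 to 52 and 49 to 58, which overlap, an A/T run at bases 74 to 79 and a STAT match at bases 126 to 134, counted from 1 at the 5′ end. Over all 35116 windows of the table, 3.57% held the IRF letters, 7.66% the STAT letters and 61.2% an A/T run. The second JAK2 window and the RCL1 window held none of the searched letters. They were rich in CpG dinucleotides, with 39 and 36, against a median of 14 over all windows (quartiles 4 and 28). Their GC shares were 73.3% and 74.7%, against a median of 58.7%. The 4 JAK2 windows differed among themselves. The third had a GC share of 69.0% and 28 CpG and the fourth 58.3% and 14 CpG, and neither held any of the searched letters. The first JAK2 window had a GC share of 50.3%, 11 CpG and A/T runs at bases 59 to 65 and 186 to 194. CD274 had 57.3% GC and 22 CpG. A match of letters is not evidence of binding, and because the peaks are on hg19 these windows were not laid over them.

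All 4 gene starts lay inside a peak in both lists. At JAK2 the shHMGA1 peak ran over chr9:4979287-4991018 and was 11732 bp wide, and the control peak ran over chr9:4982807-4989111 and was 6305 bp wide. Both had their summit at the same base, 4985225, which is 20 bp before the gene start. The authors' summit −log10 p of this peak was 33.7 in shHMGA1 cells, rank 31 of 112610, and 33.9 in control cells, rank 30 of 127153. The start of JAK2 was among the most significant sites of the genome under both conditions.

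The greater width of the JAK2 start peak in shHMGA1 cells came with a change in how peaks were split. The shHMGA1 peak overlapped 3 control peaks, which lay close together. When peaks within 150 bp were merged in each list, the JAK2 start peak measured 11732 bp in shHMGA1 cells and 11258 bp in control cells. Within 10000 bp of the start, 94.0% of bases lay under a peak in shHMGA1 cells and 88.0% in control cells.

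The RCL1 start carried the highest summit of the stretch in both lists. Its summit −log10 p was 34.8 in shHMGA1 cells, rank 23, and 35.1 in control cells, rank 24, with the summits 40 and 39 bp after the start. The peak was 12128 bp wide in shHMGA1 cells and 7199 bp in control cells. The shHMGA1 peak joined 2 control peaks, the second of which was 4471 bp wide and had its own summit 7147 bp after the start. These control peaks, chr9:4789680-4796878 and chr9:4797055-4801525, lay just past 150 bp from each other and stayed apart when peaks within 150 bp were merged. The difference in width that remained at RCL1 thus rested on that limit. Within 10000 bp of the start, 88.0% of bases lay under a peak in shHMGA1 cells and 83.5% in control cells.

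The CD274 start peak differed the other way in width. It was 4272 bp wide in shHMGA1 cells (chr9:5448642-5452913) and 4724 bp in control cells (chr9:5448184-5452907). The summit stood 15 bp after the start in both lists, with a −log10 p of 24.0 in shHMGA1 cells, rank 161, and 24.2 in control cells, rank 160. With peaks within 150 bp merged the widths were 5722 bp in shHMGA1 cells and 8023 bp in control cells. That gap rested on the 150 bp limit. The merged control peak took in neighbours whose shHMGA1 counterparts, chr9:5446130-5447030 and chr9:5453065-5454151, lay just past the limit. Within 10000 bp of the start, 72.1% of bases lay under a peak in shHMGA1 cells and 72.3% in control cells. A second CD274 peak, about 3.3 kb into the gene, had summit values of 11.1 in shHMGA1 cells, rank 10001, and 14.0 in control cells, rank 5171.

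PDCD1LG2 had the weakest start. Its start peak had a summit −log10 p of 8.27 in shHMGA1 cells, rank 21425, and 8.41 in control cells, rank 23125. The summit was 1554 bp before the start in shHMGA1 cells and 1502 bp before it in control cells, so the start itself was on the flank of the peak. The peak was 6936 bp wide in shHMGA1 cells and 5077 bp in control cells, and 3 control peaks met the single shHMGA1 peak. With peaks within 150 bp merged the widths were 6936 bp and 5997 bp. Cover within 10000 bp of the start went the other way, with 68.4% in shHMGA1 cells and 70.1% in control cells. The strongest peak near this gene lay upstream, between CD274 and PDCD1LG2. Its summit was 10.5 kb before the PDCD1LG2 start in both lists, with values of 24.0 in shHMGA1 cells, rank 163, and 23.2 in control cells, rank 207. It was 7125 bp and 7598 bp wide in shHMGA1 and control cells.

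**Figure D1:**
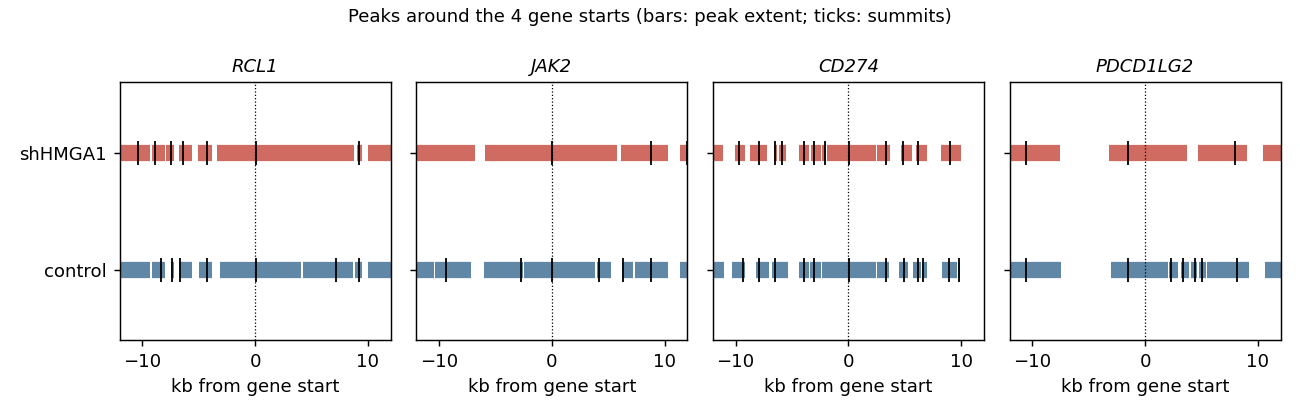
Peaks within 12 kb of the starts of RCL1, JAK2, CD274 and PDCD1LG2. The horizontal axis is the distance from the gene start in kb, bars are peaks, black ticks are summits and the rows are the shHMGA1 list (above) and the control list (below). The JAK2 start lies under 1 shHMGA1 peak of 11732 bp where control cells had 3 neighbouring peaks, and the PDCD1LG2 summit is 1554 bp (shHMGA1) and 1502 bp (control) before the start.

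Across the whole stretch, shHMGA1 cells had fewer peaks but more DNA under peaks. There were 299 peaks in shHMGA1 cells and 340 in control cells, 12.1% fewer, a ratio of 0.879 that is close to the 0.886 of the whole lists. The peaks covered 641 kb (78.1% of the stretch) in shHMGA1 cells and 606 kb (73.9%) in control cells, a ratio of 1.06. Over the whole lists the covered length was 82.1 Mb in shHMGA1 cells and 90.4 Mb in control cells, a ratio of 0.909. Within the stretch 569 kb was covered in both lists, 72.1 kb in shHMGA1 cells only and 37.5 kb in control cells only. The covered length ratio of the stretch stayed above 1, from 1.05 to 1.13, with a stricter threshold, equal list lengths or merged neighbours. The deficit in peak number did not hold with equal list lengths, where there were 172 peaks in shHMGA1 cells and 169 in control cells.

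The covered length ratio was lower in the surroundings. The stretch lies in a peak-dense part of 9p, from 2000001 to 21000000, in which the number of DNA copies was not tested. This part is a run of 5 or more successive 1-Mb windows. Each held 4 or more times the peak number of the median window under both conditions. In the rest of that part, 54.6% of bases were covered in shHMGA1 cells and 56.8% in control cells, a ratio of 0.962. The equally long flank on the side of the chromosome end had 54.6% in shHMGA1 cells and 56.7% in control cells (ratio 0.962), and the flank on the centromere side 70.9% and 70.3% (ratio 1.01). Of the 19 windows of 1 Mb, 4 had a ratio above 1. The highest of these, 1.05, was the window from 5000001 to 6000000, which holds most of the JAK2 body and all of CD274 and PDCD1LG2. The window from 4000001 to 5000000, which holds RCL1 and the JAK2 start, had a ratio of 0.989. With 1 list per group none of these differences could be tested.

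**Figure D2:**
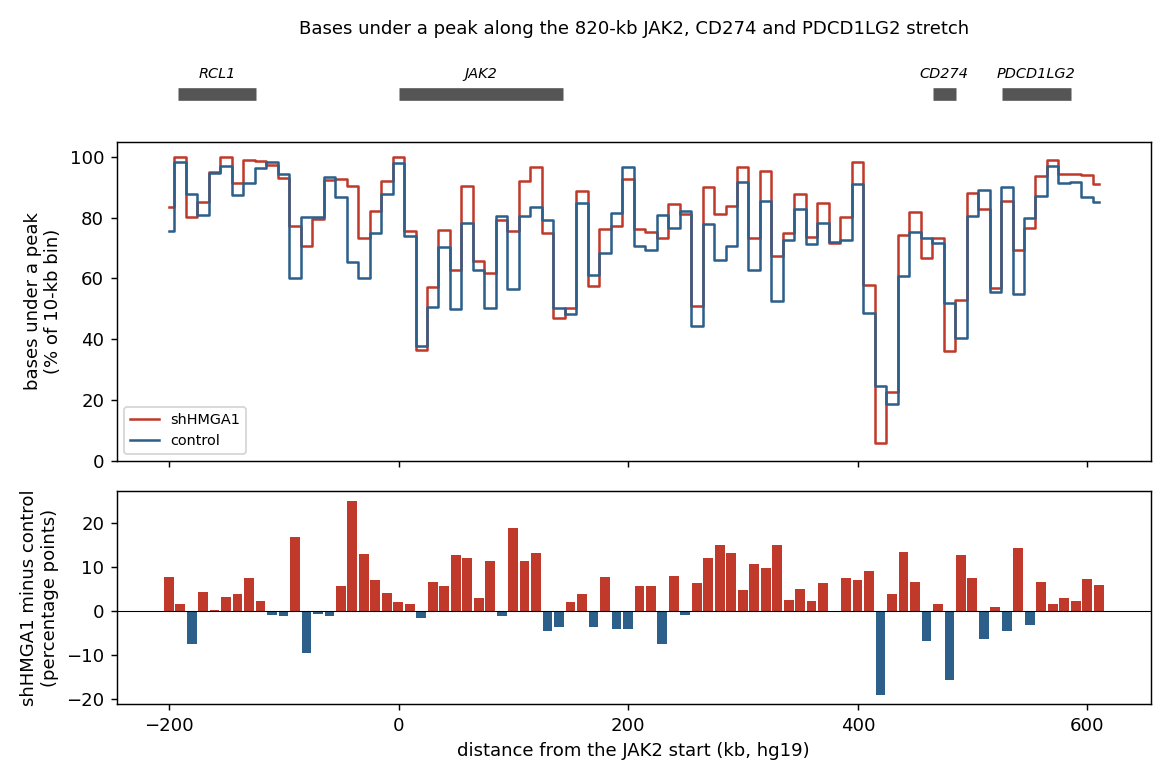
Share of bases under a peak in 10-kb bins along the stretch (upper plot, percent, shHMGA1 and control lines) and the difference shHMGA1 minus control in percentage points (lower plot), against the distance from the JAK2 start in kb. Gray bars are the gene bodies. In 60 of 82 bins the shHMGA1 list covered more bases than the control list, in 22 it covered fewer, and the differences ran from -18.9 to 25.1 points with a median of 4.29.

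Of the 4 gene bodies, JAK2 had the highest ratio of covered DNA in shHMGA1 over control cells. Peaks overlapping it numbered 65 in shHMGA1 cells and 65 in control cells. They covered 104 kb (72.6% of the body) in shHMGA1 cells and 95.1 kb (66.5%) in control cells, a ratio of 1.09. Of the body, 16.2 kb was covered in shHMGA1 cells only, against 7.49 kb in control cells only. The equality of numbers depended on the peak rules: 44 and 54 peaks remained in shHMGA1 and control cells with neighbours merged, and 31 and 25 with equal list lengths. The covered length ratio of the body was 1.10 to 1.31 under the 3 alternatives.

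Within JAK2, cover was lower in the 5′ part, which holds the start, than in the 3′ part. In 5 equal parts from the 5′ end, 62.6, 70.1, 69.7, 82.9 and 77.9% of bases were covered in shHMGA1 cells. In control cells the 5 parts had 60.3, 61.9, 61.8, 72.6 and 75.9%. The shHMGA1 value was the higher in each part, and the gap was widest in the fourth of them. After the start, the strongest peak of the body had its summit 86.9 kb into the gene, over chr9:5070405-5074051 in shHMGA1 cells and chr9:5070396-5074138 in control cells. Its summit −log10 p was 14.1 in shHMGA1 cells, rank 4294, and 16.0 in control cells, rank 2725. No other summit inside the body exceeded 8.18 in shHMGA1 cells or 8.35 in control cells.

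The CD274 body was the only one of the 4 with less DNA under peaks in shHMGA1 cells. It was met by 9 peaks in shHMGA1 cells and 13 in control cells, which covered 11.0 kb (54.8%) and 12.4 kb (61.8%), a ratio of 0.887. The difference was not even along the gene. In the fourth of 5 equal parts 28.6% of bases were covered in shHMGA1 cells and 59.1% in control cells, and in the last part 63.5% and 76.6%. In the first part, which holds the start, the values were 87.2% and 87.5%. The body is 20.1 kb long, so these shares rest on a few peaks, and with equal list lengths the ratio of covered length was 1.11.

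RCL1 and PDCD1LG2 were covered almost throughout. RCL1 was met by 18 peaks in each list, with 92.6% of bases covered in shHMGA1 cells and 90.6% in control cells. The ratio was 1.02, and 0.936 with the stricter threshold and with equal list lengths. Median peak width in RCL1, by summit, was lower in shHMGA1 cells, 1368 bp against 4302 bp in control cells. PDCD1LG2 was met by 14 peaks in shHMGA1 cells and 21 in control cells, yet 86.6% of its bases were covered in shHMGA1 cells and 83.4% in control cells. Its median peak width, by summit, was 3322 bp in shHMGA1 cells and 1171 bp in control cells. Its strongest peak lay near the 3′ end, 59.0 kb after the start, with summit values of 13.6 in shHMGA1 cells, rank 5018, and 14.1 in control cells, rank 4914.

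**Figure D3:**
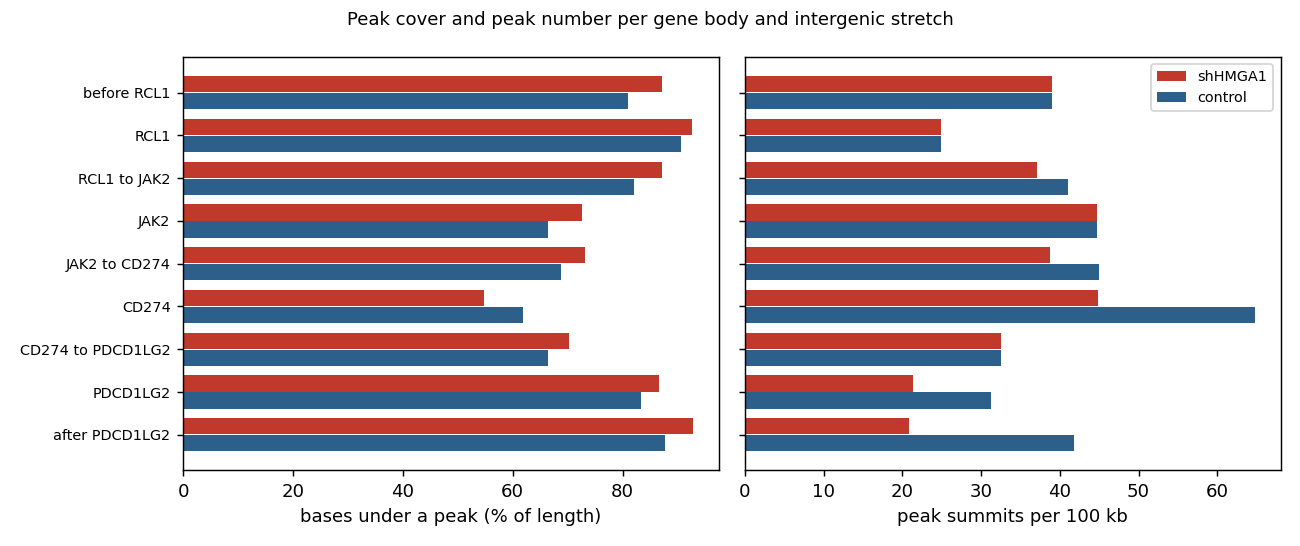
Percent of bases under a peak (left) and peak summits per 100 kb (right) for the gene bodies and the stretches before, between and after them, in the order of the chromosome, with the shHMGA1 bar above the control bar. Cover was higher in shHMGA1 cells in every stretch except the CD274 body (54.8% against 61.8%), whereas summits were as many or fewer in shHMGA1 cells in every stretch.

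Between the genes the pattern of the whole stretch returned. From RCL1 to JAK2 there were 46 peaks overlapping in shHMGA1 cells and 51 in control cells, which covered 87.2% and 82.1% of 124 kb. From JAK2 to CD274, a gap of 322 kb that holds INSL6, INSL4, RLN2, RLN1 and PLGRKT in RefSeq, there were 126 and 146 peaks, which covered 73.2% and 68.9%. From CD274 to PDCD1LG2 there were 14 in each list, which covered 70.2% in shHMGA1 cells and 66.4% in control cells. That last excess turned into a deficit with the stricter threshold (ratio 0.915) and with equal list lengths (0.957). RefSeq also lists pseudogene copies of mitochondrial genes between JAK2 and CD274, and how reads from such copies were placed is not given in the sources used here.

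After the RCL1 and JAK2 starts, the next highest summits of the stretch lay between JAK2 and CD274 at the same bases in both lists, 5339448 and 5304282. The one at 5339448 had a −log10 p of 26.3 in shHMGA1 cells, rank 97, and 26.4 in control cells, rank 100. The one at 5304282 had 25.9 in shHMGA1 cells, rank 106, and 25.8 in control cells, rank 115. The next one lay 12.6 kb before the CD274 start in both lists, with 25.1 in shHMGA1 cells, rank 123, and 25.7 in control cells, rank 119. It was 7085 bp wide in shHMGA1 cells, where it met 4 control peaks, and 2692 bp wide in control cells. At 2 sites between RCL1 and JAK2 the ranks lay further apart. These sites, the strongest of the control list there after the JAK2 start peak, were added after their values were seen. The first had a −log10 p of 15.3 in shHMGA1 cells (summit at 4862961, rank 2920) and 20.2 in control cells (summit at 4862991, rank 537). The second had 15.6 in shHMGA1 cells (summit at 4939225, rank 2656) and 18.4 in control cells (summit at 4939242, rank 1158). The 2 strongest sites of the shHMGA1 list there after the JAK2 start peak, added likewise, lay closer. The first of these had 15.9 in shHMGA1 cells and 16.9 in control cells, and the second had 15.7 and 16.4. Genes at these sites were not annotated on hg19 here.

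The part with the least cover lay in the same gap. The longest run without a peak was 8461 bp in shHMGA1 cells, chr9:5402744-5411204, where control cells had, apart from the edge of a neighbour, 1 peak with a summit value of 3.97. In control cells the longest run was 6024 bp, chr9:5127447-5133470, at the 3′ end of JAK2. The 10-kb bin with the lowest cover in shHMGA1 cells had 5.83% in shHMGA1 cells and 24.8% in control cells, the largest difference in that direction.

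Most peaks of the stretch were overlapped by a peak of the other condition. Of the shHMGA1 peaks, 19 of 299 (6.35%) were not overlapped by a control peak by at least 1 bp, against 14.8% of the whole shHMGA1 list. Of the control peaks, 15 of 340 (4.41%) were not overlapped by an shHMGA1 peak, against 24.9% of the whole control list. The overlapped shares were 93.6% (exact 95% interval 90.3 to 96.1) and 95.6% (92.8 to 97.5), intervals that cover counting error only and treat neighbouring peaks as independent. In the rest of the dense part of 9p, 8.19% of shHMGA1 peaks and 14.1% of control peaks were not overlapped. Control-only peaks made up 44.1% of all unshared ones (27.2 to 62.1), against 64.3% in the rest of that part and 65.5% in the whole lists. When peaks within 500 bp counted as shared, only 2 shHMGA1-only and 5 control-only peaks were left. Their control-only share of 71.4% (29.0 to 96.3) rests on too few peaks to give a direction. At a reciprocal overlap of 50% the share was 58.6% (52.1 to 65.0), from 98 shHMGA1-only and 139 control-only peaks. The whole lists had 33335 and 47878 under that rule. The contrast thus depended on the overlap rule. With 78.1% of the stretch covered in shHMGA1 cells and 73.9% in control cells, an overlap of 1 bp is easily met there. With a reciprocal overlap of 50%, 32.8% of shHMGA1 peaks and 40.9% of control peaks had no partner, against 29.6% and 37.7% of the whole lists and 37.4% and 40.3% of the rest of the dense part of 9p.

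The unshared peaks were weak, as they were in the whole lists. None lay at or above the median summit value of its list. In the whole lists 868 of 16682 shHMGA1-only and 2490 of 31635 control-only peaks did. The median summit value of unshared peaks was 3.98 in shHMGA1 cells and 3.85 in control cells, against 4.09 and 4.24 in the whole lists. The strongest shHMGA1-only peak, chr9:5380058-5380592, had a summit −log10 p of 4.84, rank 65679, and lay 191 bp from a control peak. The strongest control-only peak, chr9:5325466-5325598, had 4.42, rank 90297, and lay 611 bp from an shHMGA1 peak. By summit, 5 shHMGA1-only and 2 control-only peaks lay in the JAK2 body, 0 and 1 in CD274, 2 and 1 in PDCD1LG2, and 2 and 0 in RCL1. The 5 strongest unshared peaks had summit values of 4.24 to 4.84 in shHMGA1 cells and 4.04 to 4.42 in control cells. Cut into 3 equal parts by summit value, the strongest part had 99 of 99 peaks overlapped in shHMGA1 cells and 113 of 113 in control cells, and the weakest part 83 of 100 and 99 of 114.

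**Figure D4:**
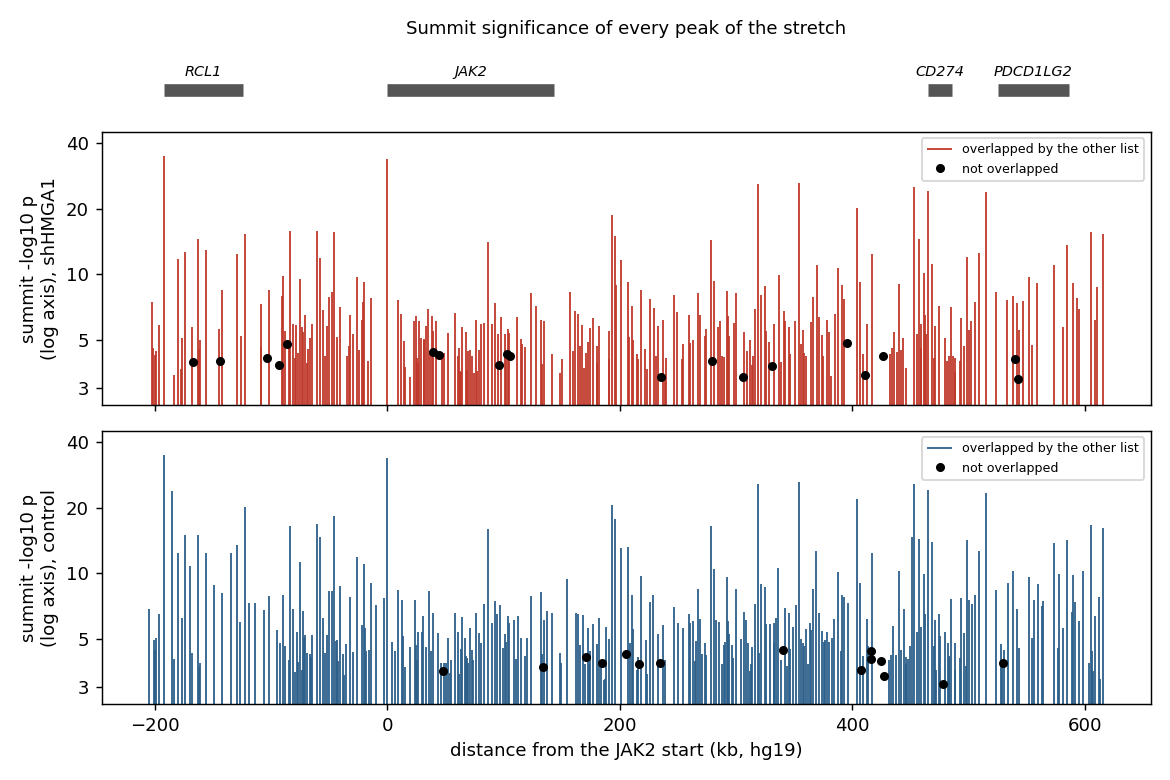
Summit −log10 p of every peak (log axis) against the distance from the JAK2 start in kb, for the shHMGA1 list (upper plot) and the control list (lower plot). Lines are peaks overlapped by the other list and black dots are peaks that are not. The dots, 19 in shHMGA1 cells and 15 in control cells, lie at or below 4.84, while the highest lines are at the RCL1 and JAK2 starts.

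The fewer and longer peaks of shHMGA1 cells were seen directly in how peaks met. The lists formed 262 separate regions, of which 145 held exactly 1 peak of each list. In 41 regions a single shHMGA1 peak met several control peaks, 99 in all, and in 19 regions a single control peak met several shHMGA1 peaks, 39 in all. Another 23 regions held several peaks of both lists, 55 from shHMGA1 cells and 62 from control cells. Over all regions, 72 shHMGA1 peaks (24.1%, against 3.72% of the whole list) overlapped at least 2 control peaks, and 48 control peaks (14.1%, against 3.58%) overlapped at least 2 shHMGA1 peaks. In the rest of the dense part of 9p the shares were 14.8% and 15.6%. The widest shHMGA1 peak, 15540 bp (chr9:4860166-4875705, from the end of RCL1 outward), met 3 control peaks. The widest control peak, 10110 bp (chr9:5105938-5116047, inside JAK2), met 2 shHMGA1 peaks. The 5 widest peaks measured 12294 to 15540 bp in shHMGA1 cells and 8269 to 10110 bp in control cells.

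Of the 145 single-partner regions, 90 (62.1%) had the wider peak in shHMGA1 cells, against 44.8% of such regions in the whole lists. The median log2 width ratio was 0.06 in the stretch, -0.02 in the rest of the dense part of 9p and -0.03 in the whole lists. Past a fold of 1.5, 18 regions (12.4%, against 9.78% of the whole lists) were wider in shHMGA1 cells and 11 (7.59%, against 13.8%) narrower. The excess was not even along the stretch. In the JAK2 body 22 of 33 such peaks were wider in shHMGA1 cells, with a median log2 ratio of 0.15, and in CD274 1 of 4. From JAK2 to CD274 it was 45 of 67 (median 0.11). From RCL1 to JAK2 it was 7 of 16 (median -0.007) and from CD274 to PDCD1LG2 5 of 10 (median -0.005). RCL1 had 2 of 4, PDCD1LG2 3 of 5 and the part before RCL1 4 of 5. The largest widening was 4.54-fold, between CD274 and PDCD1LG2, with 963 bp in shHMGA1 cells and 212 bp in control cells. The next were 2 peaks of the JAK2 body, of 830 bp against 294 bp and 1097 bp against 431 bp in shHMGA1 and control cells. The largest narrowing was also in JAK2, with 333 bp in shHMGA1 cells and 809 bp in control cells. All 4 of these were weak peaks, with summit values of at most 4.33 in both lists.

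**Figure D5:**
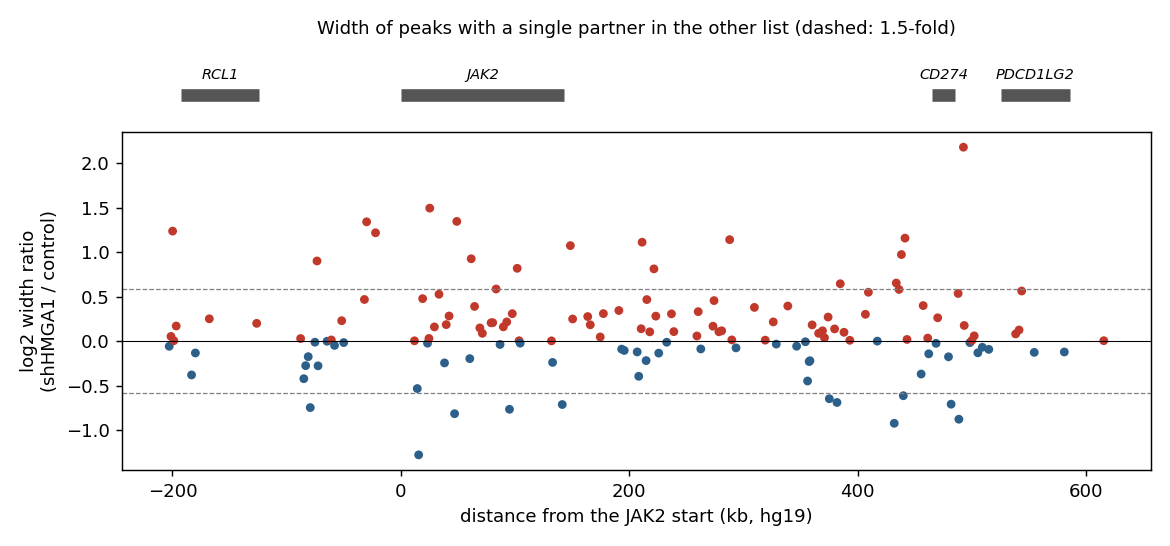
log2 ratio of peak widths, shHMGA1 over control, for the 145 regions with a single peak in each list, against the distance from the JAK2 start in kb. Dashed lines mark a fold of 1.5. In 90 regions the shHMGA1 peak is the wider, and 18 points lie above the upper and 11 below the lower dashed line.

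Away from the starts and a few distal sites, most peaks of the stretch had summit values near those of the whole lists. The median summit −log10 p was 5.61 in shHMGA1 cells and 5.56 in control cells, against 5.22 and 5.25 in the whole lists. Of the shHMGA1 peaks 33 (11.0%) and of the control peaks 41 (12.1%) were in the most significant 10% of their list. In the rest of the dense part of 9p these shares were lower, 3.88% in shHMGA1 cells and 4.45% in control cells. Median summit values there were 4.87 and 5.04. Peaks were wide, with medians of 1281 bp in shHMGA1 cells and 1154 bp in control cells, against 539 bp and 525 bp in the whole lists. The number of peaks per base was 9.88 times that of the rest of chromosomes 1 to 22 and X in shHMGA1 cells and 9.95 times in control cells. The rest of the dense part of 9p was at least as dense, with 39.8 peaks per 100 kb in shHMGA1 cells and 41.7 in control cells, against 36.5 and 41.5 in the stretch. Its peaks had median widths of 918 bp in shHMGA1 cells and 899 bp in control cells. Summits of single-partner peaks lay a median of 56 bp apart, against 53.5 bp in the rest of that part and 20 bp in the whole lists.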

How the data were processed

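ATAC-seq libraries were made from DAMI cells infected with shHMGA1 or control lentivirus, 3 samples each; per the labels' protocols the Tn5 reaction took 50000 cells and 2 µl of enzyme, for 45 min at 37 °C. Per the submitters' processing notes, peaks were called with Genrich on hg19; neither its settings, nor the aligner and read filters, nor how samples were joined is given in the sources used here. The authors deposited 1 peak list per group, assigned by its name. Each peak's deposited height is an unadjusted −log10 p at the summit (the q column is −1 throughout). The deposited signal is the area under the significance curve, at least 200.0 under both conditions. A score, also deposited, was 1000 times area over width up to a cap of 1000 in 112608 of 112610 shHMGA1 rows and 127153 of 127153 control rows; it was not used. Positions are 1-based. These authors' values were used only to describe, rank or filter peaks within a list. Depth is unknown.

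Peaks were shared at 1 bp of overlap. Gene bodies were counted by overlap and the stretches of unshared peaks and widths by summit; gene starts were searched within 1000 bp. Named were the peaks at gene starts, per list the 5 highest, 5 widest and 5 strongest unshared peaks, and the 3 most widened and most narrowed pairs, of which the leading ones are described. The strongest peak of each gene body and the peak upstream of PDCD1LG2 were added after their values were seen. Members, lists and alternatives were chosen with earlier results of these data known. Overlap and widths were tested on a list simulated from the control peaks of chromosome 9 by dropping some and narrowing others. Merging was tested on those control peaks themselves, and split or joined peaks were not simulated. Intervals are exact Clopper-Pearson. Python 3.11.15, numpy 2.4.6, pandas 2.3.3, scipy 1.17.1, networkx 3.6.1 and matplotlib 3.10.9 were used.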

Additional observations from a re-analysis of the deposited data

How the results depend on the processing

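The covered length ratio of the stretch was 1.08 with only peaks at or above the joined median summit −log10 p of 5.24, 1.13 with 56305 peaks from each list and 1.05 with neighbours within 150 bp merged; the whole lists had 0.894, 0.970 and 0.908. These ratios by gene and stretch were computed after seeing the data. With the stricter threshold and with equal numbers the ratio turned round for the RCL1 body (0.936 at both) and from CD274 to PDCD1LG2 (0.915 and 0.957), and with equal numbers for the CD274 body (1.11). The ratio of peak numbers was 0.915, 1.02 and 0.894, so it turned round with equal numbers. Overlapped shares of shHMGA1 peaks were 89.5% with the stricter threshold, 84.9% with equal numbers, 67.2% at a reciprocal overlap of 50% and 99.3% within 500 bp, and of control peaks 89.9% with the stricter threshold, 59.1% at a reciprocal overlap of 50% and 98.5% within 500 bp. Within 500 bp, 2 shHMGA1-only and 5 control-only peaks were left, a control-only share of 71.4%. The share was 58.6% at a reciprocal overlap of 50% and 27.8% with equal numbers. Density against the rest of the genome was 11.5 times in shHMGA1 cells with the stricter threshold, 11.4 and 11.2 times in shHMGA1 and control cells with equal numbers, and 7.66 and 7.63 times with merging. The cause of these shifts was not tested. Windows of 500 and 2000 bp also found a peak at all 4 gene starts in both lists. No paired analysis was possible because the files give a single list for each group and no values per sample, so no replicate was left out either. Unknown depth limits every statement on weak peaks.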
